A study of Anas platyrhynchos with 12 samples.

Results

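The genes described here are 6 gene models of the deposited table that a reference annotation of the Pekin duck places on W, out of 54 models placed on W and 16433 in all. They are named NIPBL (ncbi_101793805), CTIF (ncbi_101794193), SMAD7 (ncbi_110352107), HNRNPK (ncbi_101791000), GNAQ (ncbi_101790479) and PIAS2 (ncbi_101789923). They were chosen by their counts in these 12 libraries, so their levels, shares and differences between groups are given as a description and no test of them is used. The study sequenced RNA of breast muscle from ducks (Anas platyrhynchos) of an F2 population at 42 days of age. Of the 12 samples, 6 are labelled as ducks with high breast muscle ratios (HB) and 6 as ducks with low ones (LB). All birds had the same keeping, with free access to feed and water, and the labels give no sex, treatment, genotype or batch. The column names give a library's group and a number, which only names it, and nothing states that the libraries came from separate birds, so any p-value measures the spread between these samples.

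Female birds carry a Z and a W sex chromosome and males carry a pair of Z chromosomes, so transcripts of W genes mark female tissue. Many W genes are old copies of Z genes and have kept a closely related partner on Z, which lets reads of a W copy and its Z partner be confused. Birds do not fully equalise the output of Z between the sexes, and many Z genes are expressed at a lower level in females.

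Libraries held 24090771 to 42503751 counts, with the largest total in HB-3. Of 12 skeletal muscle markers, 6 symbols were found, as 7 models, and 6 of these models held at least 10 CPM (counts scaled to library size) in every library. The summed muscle markers lay between 64700 and 112000 CPM in HB and between 59800 and 81600 CPM in LB, with 78900 CPM in HB-3. Gonad and germ cell markers summed to 0.83 to 1.53 CPM, with 1.29 CPM in HB-3. Red cell markers summed to 1490 to 4210 CPM in HB, with 3850 CPM in HB-3, and to 2020 to 3230 CPM in LB. Brain markers summed to 0.083 to 0.604 CPM, with 0.447 CPM in HB-3.

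Library HB-3 held the highest level of all 6 W models. Their summed counts were 4277 in HB-3 and 490 to 902 in the other 11 libraries, or 101 CPM against 19.6 to 26.0 CPM. Over all 15209 models with a count, HB-3 was the highest of the 12 libraries for 5.94%. In bulk tissue, more cells that carry a transcript and more RNA per cell cannot be told apart.

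**Figure D1:**
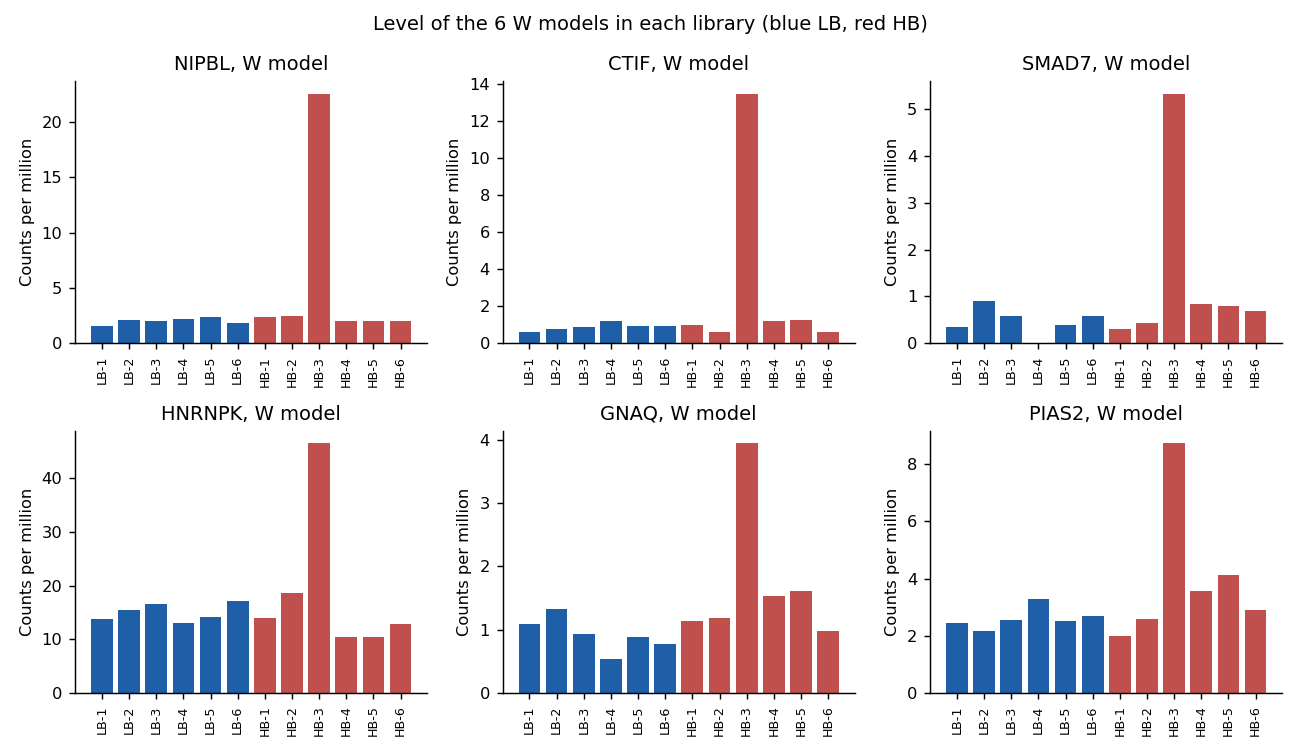
Level in CPM (vertical axis, from 0) of each of the 6 W models in the 12 libraries, LB in blue and HB in red, 1 bar per library. HB-3 is the tallest bar in every panel, from 2.11 times the next library for PIAS2 to 10.6 times for CTIF.

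NIPBL encodes the protein that loads cohesin onto chromosomes. Its W model held 1.59, 2.05 and 2.38 CPM as the lowest, median and highest LB values, and 2.01, 2.19 and 22.6 CPM in HB. HB-3 held 961 counts and stood 9.02 times above the next library, HB-2, while the other HB libraries shared the range of LB or lay just above it.

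CTIF is a translation factor that works with the nuclear cap-binding complex. Its W model held 0.592, 0.888 and 1.20 CPM as the lowest, median and highest LB values, and 0.585, 1.11 and 13.5 CPM in HB. With 574 counts, HB-3 stood 10.6 times above HB-5, the next library, which was the widest gap among the 6 models.

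SMAD7 is an inhibitory SMAD that dampens signalling by transforming growth factor beta. Its W model held 0, 0.478 and 0.906 CPM in LB and 0.31, 0.744 and 5.34 CPM in HB, again as lowest, median and highest. The 227 counts of HB-3 put it 5.89 times above LB-2. LB-4, the shallowest library, held 0 counts, which allows up to 0.125 CPM (3 counts; counting error only).

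HNRNPK, an RNA-binding protein of splicing and transcript turnover, had the highest counts of the 6. Its W model held 13.1, 14.8 and 17.2 CPM as the lowest, median and highest LB values, and 10.4, 13.4 and 46.5 CPM in HB. HB-3 held 1976 counts, 2.48 times the level of HB-2, and the other 11 libraries held 316 to 620 counts, so this model was not confined to HB-3. No other model with the HNRNPK symbol or description was found, so its counts could not be set against those of a partner.

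GNAQ encodes the alpha subunit of Gq, the G protein that activates phospholipase C. Its W model held 0.54, 0.902 and 1.33 CPM as the lowest, median and highest LB values, and 0.984, 1.35 and 3.95 CPM in HB. HB-3, with 168 counts, was 2.44 times as high as HB-5.

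PIAS2 is a SUMO ligase that acts on transcription factors. Its W model held 2.17, 2.54 and 3.28 CPM as the lowest, median and highest LB values, and 2.0, 3.23 and 8.73 CPM in HB. HB-3 stood 2.11 times above HB-5, the narrowest gap of the 6. The share of a model's counts over all libraries that lay in HB-3 was 63.0% for CTIF, 54.9% for NIPBL, 52.2% for SMAD7, 28.8% for GNAQ, 26.8% for HNRNPK and 26.2% for PIAS2. As markers of a single library, CTIF, NIPBL and SMAD7 were thus sharper than GNAQ, HNRNPK and PIAS2.

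Other models with the same symbol or description were compared with the 6 W models. There were 7 of them. NIPBL, CTIF, GNAQ and PIAS2 each had a model placed on Z, SMAD7 had a model with no place in the reference (ncbi_113840330), CTIF had a further model with no place, and PIAS2 had a further model on W. The deposited counts may split reads of such copies between them, and their sequences were not compared, so values of a W model and its partner are uncertain to that extent.

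The Z models of NIPBL, CTIF and PIAS2 had their lowest value in the library where the W models were highest. HB-3 also held the lowest value for 37.2% of 511 Z models with a mean of at least 1 CPM. A lowest value there was thus not particular to these partners. Z-linked NIPBL held 49.9 CPM in HB-3 and 68.4 to 92.3 CPM in the other 11 libraries, which leaves HB-3 outside their range. Z-linked CTIF held 13.8 CPM in HB-3 and 14.8 to 20.4 CPM elsewhere. Z-linked PIAS2 held 13.4 CPM in HB-3, just under the 14.5 CPM of LB-4, and up to 29.5 CPM elsewhere. Z-linked GNAQ held 32.3 CPM in HB-3, the second lowest value after 32.1 CPM in LB-1, so HB-3 lay inside the range of the others. The SMAD7 model with no place held 5.15 CPM in HB-3, in the range of 4.15 to 10.7 CPM of the other libraries.

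The share of a pair's counts on the W model was highest in HB-3 for all 5 pairs. The pairs leave out the further PIAS2 and CTIF models, which held 83 and 68 counts in HB-3 and 0 elsewhere. The W model took 49.4% of the CTIF pair's counts in HB-3 (95% exact binomial interval 46.5 to 52.3%, counting error only) and 3.41 to 7.07% in the other 11. For NIPBL the W share was 31.2% in HB-3 (29.5 to 32.8%) and 2.05 to 3.34% elsewhere. For PIAS2 it was 39.5% in HB-3 (36.4 to 42.7%) and 8.14 to 18.4% elsewhere, with the upper end in LB-4. PIAS2 thus had the highest W shares outside HB-3 of these 3 genes. For GNAQ the W share was 10.9% in HB-3 (9.38 to 12.6%) and 1.40 to 4.17% elsewhere. For SMAD7, with its partner of unknown place, it was 50.9% in HB-3 (46.2 to 55.6%) and 0 to 10.4% elsewhere, where the 0 of 100 counts in LB-4 has an upper limit of 3.62% by the same interval. In the other 11 libraries the W share had medians of 2.45% for GNAQ, 2.46% for NIPBL, 4.73% for CTIF, 7.53% for SMAD7 and 10.8% for PIAS2. Whether these counts are misplaced reads of the partner was not tested.

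**Figure D2:**
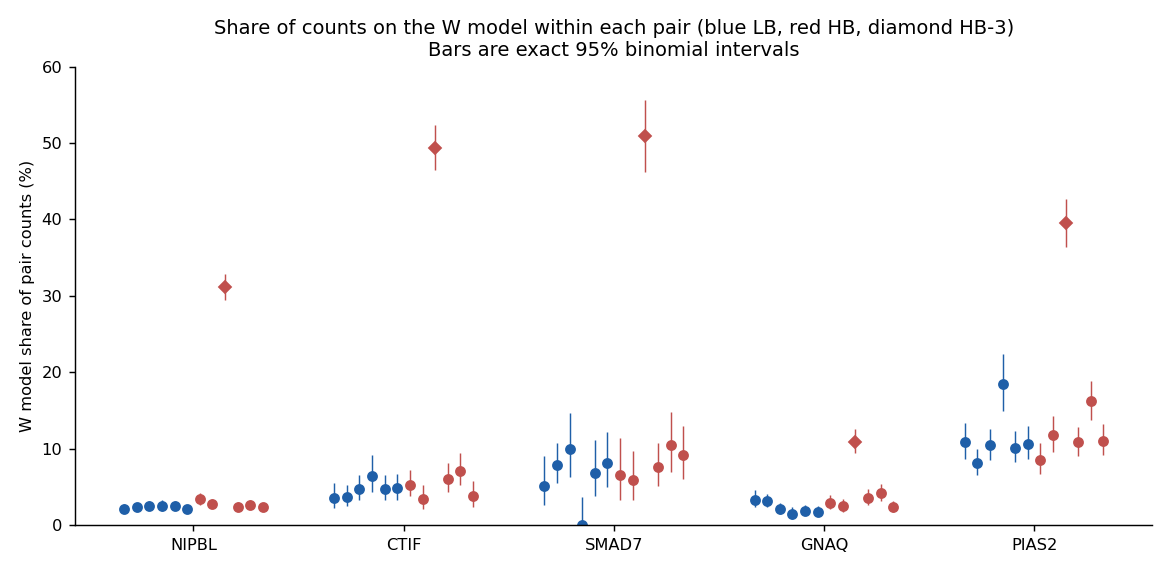
Share of a pair's counts that lay on the W model (vertical axis, percent) for 5 genes, 1 symbol per library with its exact 95% binomial interval, LB in blue, HB in red and HB-3 as a diamond. The diamond is the highest value for every gene, from 10.9% for GNAQ to 50.9% for SMAD7.

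Adding the W and Z counts of a pair, again without the further PIAS2 and CTIF models, brought HB-3 back among the other libraries for some genes. The NIPBL pair summed to 72.5 CPM in HB-3 and 70.8 to 94.7 CPM in the other 11, where HB-3 ranked second lowest. The PIAS2 pair summed to 22.1 CPM in HB-3 and 17.8 to 33.0 CPM elsewhere. The GNAQ pair summed to 36.3 CPM, inside the 33.2 to 48.2 CPM of the others, but Z-linked GNAQ alone already lay inside their range. The CTIF pair summed to 27.3 CPM in HB-3, above the 15.4 to 21.2 CPM of all other libraries. Per length, each W model was below its Z partner in HB-3, with 2.56 against 5.16 FPKM (a level scaled to gene length and library size) for NIPBL, 2.85 against 4.27 FPKM for CTIF, 1.44 against 3.84 FPKM for GNAQ and 2.35 against 3.76 FPKM for PIAS2.

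The 2 remaining namesakes were detected in HB-3 alone. The further W model of PIAS2 (ncbi_113842159) held 83 counts in HB-3 and 0 in each of the other 11 libraries. The further CTIF model (ncbi_101795955) held 68 counts in HB-3 and 0 elsewhere. By counting error alone, a count of 0 allows up to 3 counts per library. Values of 1 were rarer than values of 2 in the deposited counts (367 against 2742). Whether a 0 follows plain counting error was not tested.

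In the comparison of HB with LB, the study's own contrast, the W models' differences depended on HB-3 to unlike degrees. The largest estimate without HB-3 was that of GNAQ, which held 13 to 55 counts in the other 11 libraries. It lay within the SE of the SMAD7 estimate, so their order is not resolved. With all libraries, edgeR gave log2 differences (HB minus LB, ± SE) of 1.83 ± 0.75 for CTIF, 1.64 ± 0.78 for SMAD7, 1.51 ± 0.62 for NIPBL, 0.95 ± 0.37 for GNAQ, 0.65 ± 0.32 for PIAS2 and 0.36 ± 0.32 for HNRNPK. Without HB-3 these became 0.15 ± 0.32, 0.46 ± 0.61, 0.16 ± 0.18, 0.53 ± 0.29, 0.27 ± 0.24 and -0.14 ± 0.14, so that HNRNPK changed sign. The mean of NIPBL went from 5.59 ± 8.34 CPM in HB (SD, n = 6) to 2.18 ± 0.238 CPM in the 5 other HB libraries, against 2.02 ± 0.282 CPM in LB. All 6 models passed the low-count filter. Across all 12577 models tested by edgeR, 0 were called at an adjusted p under 0.05 (0.0%) and 579 had an unadjusted p under 0.05. DESeq2, fitted to 15209 models, called 1.

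The authors' deposited table gives the W model of CTIF a log2 fold change of 1.78 and that of NIPBL 1.46, each with a p-value of 1. DESeq2 run on the same counts returned no p for these 2 models. These are the 2 members with the widest gap between HB-3 and the next library. For the other members DESeq2 gave unadjusted p-values from 0.015 (GNAQ) to 0.259 (HNRNPK), the same as those deposited. The smallest deposited adjusted p-value among them was 0.834 (GNAQ). These values are a description, as the members were chosen by their counts.

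**Figure D3:**
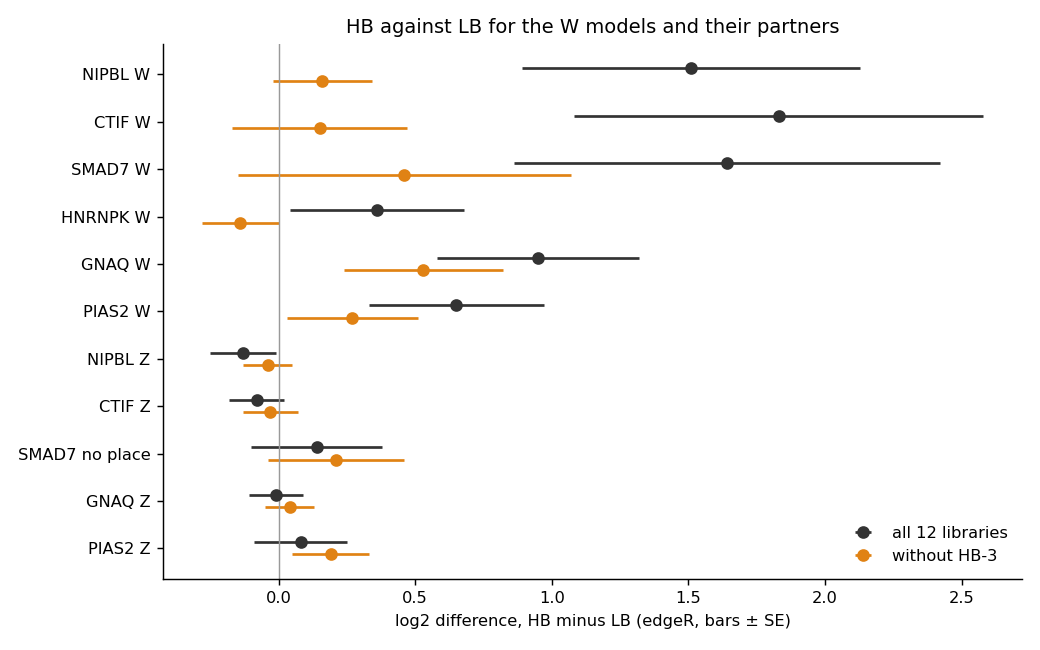
Log2 difference between HB and LB (horizontal axis, edgeR, bars ± SE) for the 6 W models and the 5 partners that were tested, with all 12 libraries (black) and without HB-3 (orange). The W models lie between 0.36 and 1.83 with all libraries and between -0.14 and 0.53 without HB-3, while the partners stay within 0.21 of 0 in both fits.

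The partners, which the rule did not use, did not pass the threshold between HB and LB. Z-linked NIPBL held 74.7 ± 14.1 CPM in HB and 84.5 ± 7.02 CPM in LB (SD, n = 6), a log2 difference of -0.13 ± 0.12 with an adjusted p of 0.977 in edgeR. The smallest adjusted p of any tested partner under any alternative was 0.862. Z-linked CTIF, GNAQ and PIAS2 had log2 differences of -0.08 ± 0.10, -0.01 ± 0.10 and 0.08 ± 0.17, and the SMAD7 model with no place had 0.14 ± 0.24. Without HB-3 the 4 Z models moved upward to -0.04, -0.03, 0.04 and 0.19. The 2 namesakes detected in HB-3 alone did not pass the low-count filter and were not tested.

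Most other models placed on W were also high in HB-3. Of the 54 models, 5 had no count in any library and 49 had a count. In 31 of the 49, the level in HB-3 was over 5 times that in every other library, a gap found for 0.743% of all 15209 models with a count. NIPBL, CTIF and SMAD7 are among the 31. The other 28 held 9740 counts together in HB-3 and 12 to 48 in each of the other libraries, and 21 of them were at 0 in all 11 other libraries. These counts come from the same libraries as the choice of the 6 models and are given as a description.

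Among these 28, BTF3, a subunit of the nascent polypeptide complex at ribosomes, held 1624 counts in HB-3 and at most 2 in any other library. UBQLN1, which carries ubiquitinated proteins to the proteasome, held 853 counts in HB-3 and 0 elsewhere. The W copy of spindlin (a reader of histone methylation, named SPINZ in the table) held 742 counts in HB-3 and at most 5 elsewhere. SMAD2, which carries signals of activin and transforming growth factor beta, held 472 counts in HB-3 and at most 5 elsewhere. CHD1, a chromatin remodeller whose W copy is widely used to sex birds, held 262 counts in HB-3 and 0 in the other 11. KCMF1, a ubiquitin ligase, held 351 counts in HB-3 and 0 elsewhere. ZSWIM6 (ncbi_101797738), a zinc finger protein, held 291 counts in HB-3 and 10 to 41 elsewhere, so counts outside HB-3 were not limited to the 6 models.

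A further 14 models placed on W were not highest in HB-3 by CPM. GLO1, which detoxifies methylglyoxal, held 5606 counts in HB-3 and 3194 to 6499 elsewhere. ZFAND3 and BTBD9 held 5146 and 1298 counts in HB-3 and 3469 to 5525 and 867 to 1465 elsewhere. ATP5F1A, a subunit of ATP synthase, has a model placed on W with 15532 counts or 365 CPM in HB-3, the deepest library, and up to 418 CPM elsewhere. It also has a model with no place (ncbi_101801944) with 11543 counts in HB-3 and 0 elsewhere. Without that model, the W share of the ATP5F1A pair's counts was 17.5% in HB-3 (17.2 to 17.7%, counting error only). In the other libraries it was at most 11.5%. For MAP1B, also not highest in HB-3, the W share was 80.3% there and up to 100% elsewhere. The place on W comes from the RefSeq table of assembly IASCAAS_PekinDuck_T2T, which may not be the assembly used for alignment.

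**Figure D4:**
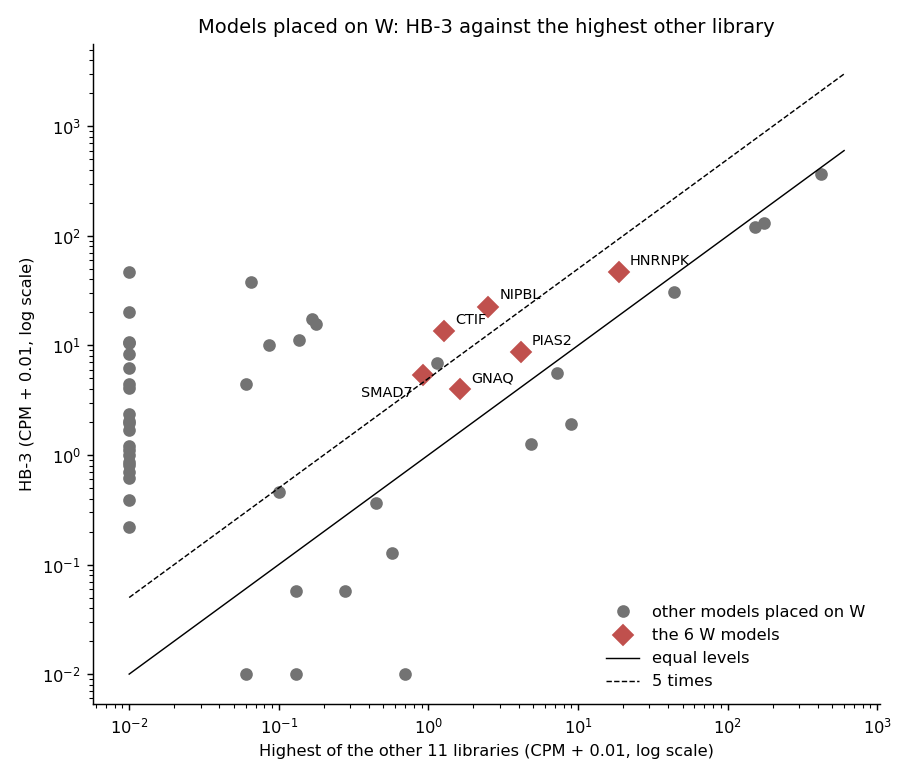
Level in HB-3 (vertical axis) against the highest of the other 11 libraries (horizontal axis) for the 49 models placed on W with a count, in CPM plus 0.01 on log scales, with the 6 W models as red diamonds. The solid line marks equal levels and the dashed line 5 times. Models at the left edge were at 0 in all other libraries, and CTIF, NIPBL and SMAD7 lie above the dashed line while HNRNPK, GNAQ and PIAS2 lie below it.

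The same gap was looked for in every library, among models with at least 50 counts in that library. HB-3 had 60 such models, of which 23 are placed on W, 36 have no place in the reference and 1 lies on chromosome 4. HB-4 also had 60, of which 0 are on W and 45 on numbered chromosomes. The other 10 libraries had 0 to 5 each, with 0 on W. The 36 models with no place held 36491 counts together in HB-3 and 0 to 34 in each other library. Of the 36, 27 have a symbol and 19 carry the symbol of a model on Z. The share of all models with no place that carry such a symbol is not given here, so the 19 are only a description. Among the 36, VCP, an ATPase that extracts proteins for degradation, held 5671 counts in HB-3 and at most 12 elsewhere. Models described as Wpkci, the W-linked relative of HINT1 in birds, numbered 3 and held 4715 counts in HB-3 and at most 2 in any other library. Models whose description names RASA1 and KCMF1 as W-linked held 99 and 131 counts in HB-3 and 0 elsewhere.

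The 10 models outside W whose levels most resembled the summed W models over the 12 libraries all had no place in the reference. Pearson's r of log2 (CPM + 1) lay between 0.9799 and 0.9825 (12 libraries that share depth and tissue; HB-3 alone sets these values). The highest was a Wpkci model (ncbi_113841128) with 1966 counts in HB-3, followed by models named ERV3-1, POL, ATP5F1A, UBAP2, UBE2R2, DNAJB5 and RPL37. Models at 0 in all 11 other libraries share nearly the same r, so their order carries no meaning.

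Per length, W models were mostly below their Z partners in HB-3. There were 25 pairs of a W model, either from the 6 or from those over 5 times every other library, with the only Z model of the same symbol. The W to Z ratio of FPKM in HB-3 ran from 0.0395 to 1.18 with a median of 0.489, and it was under 1 in 23 pairs. The lowest ratio was that of a ZSWIM6 model (ncbi_113842241) with 9 counts, while the other ZSWIM6 model on W had 0.419. ZSWIM6, GOLPH3 and PIAS2 enter more than once, as separate W models against the same Z model. Models with no place are left out, so a ratio may miss part of a W copy. NIPBL, CTIF, PIAS2 and GNAQ had ratios of 0.495, 0.668, 0.624 and 0.376. BTF3 reached 45.8 FPKM on W against 54.5 FPKM on Z, and MIER3, a transcriptional regulator, had the highest ratio with 1.88 against 1.59 FPKM. The 25 pairs hold 22 distinct Z models, of which 17 had their lowest CPM in HB-3 and 20 their lowest or second lowest. HB-3 held the lowest value for 37.2% of 511 Z models with a mean of at least 1 CPM. A matching share for the second lowest value is not given here. The pairs entered through high W counts in HB-3, so these counts are a description.

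The Z chromosome as a whole was low in the library where the W models were high. The Z level of a library is the median, over 511 Z models with a mean of at least 1 CPM, of log2 (CPM + 1) relative to the model's median over libraries, less the same over 10012 models on numbered chromosomes. It was -0.299 in HB-3 and between -0.029 and 0.049 in the other 11 libraries. HB-3 held the lowest value of the 12 libraries for 190 of the 511 Z models (37.2%) and for 5.69% of models on numbered chromosomes. In the other libraries the share on Z was below the share on numbered chromosomes, at 14.5% against 22.4% in HB-4 and 17.8% against 20.5% in LB-1. The shares of the 12 libraries add up to the whole. The high Z share in HB-3 thus leaves less for the others, and their lower shares are no separate result. Across 30 numbered chromosomes with at least 20 models, the median in HB-3 lay between -0.047 and 0.061, and that of Z was -0.301, or 0.812 of the median over all 12 libraries. The middle part of the Z models ran from -0.561 at the lower quartile to -0.068 at the upper quartile, so the shift differed between genes. High W counts with a low Z level are the pattern described for female birds. No sex was assigned to a library here.

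**Figure D5:**
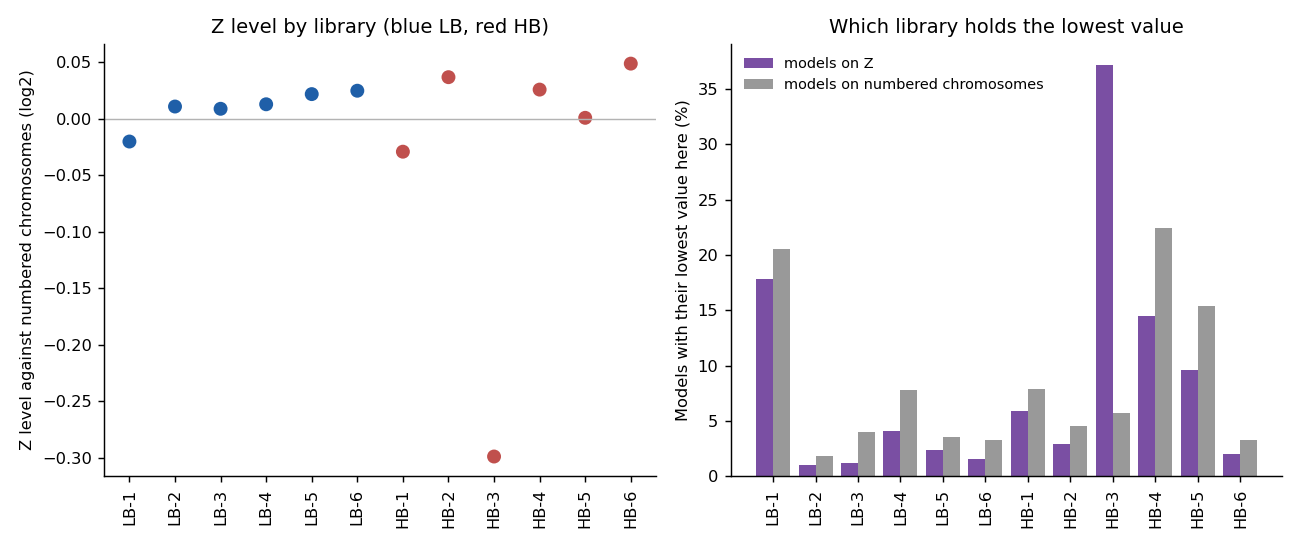
Left, the Z level of each library against numbered chromosomes (log2), LB in blue and HB in red, where HB-3 lies at -0.299 and the others between -0.029 and 0.049. Right, the percentage of models whose lowest value of the 12 libraries lies in each library, for models on Z (purple) and on numbered chromosomes (grey), with 37.2% against 5.69% in HB-3.

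Z copies of genes that keep a W copy in birds were measured as a list of 30, of which 27 had a Z model and 26 were tested. None passed the threshold between HB and LB in edgeR, with 9 higher and 17 lower in HB and a median log2 difference of -0.05, against a median of 0.0 over all models tested. Without HB-3 the median was -0.01. Over all 557 tested Z models the median was -0.044 and 58.3% were lower in HB. In HB-3 the median of the list lay at -0.46 (log2, relative to each gene's median over all 12 libraries), against -0.301 over 511 Z models. Of the 26, 18 had their lowest value there, against 37.2% of the 511 Z models. The list was chosen with earlier results of these data known and holds the Z partners of NIPBL, CTIF, GNAQ and PIAS2. Its values in HB-3 are therefore only a description. ATP5F1A held 1730 CPM on Z in HB-3 and 2320 to 3430 CPM elsewhere. BTF3 held 50.9 CPM in HB-3 and 69.2 to 93.4 CPM elsewhere. TXNL1, a thioredoxin-like protein, went the other way and lay at 0.28 above its median in HB-3. None of the 54 models placed on W here carries its symbol.

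Z genes of growth and muscle metabolism numbered 25, and 23 were tested. None passed the threshold, with 13 higher and 10 lower in HB and a median log2 difference of 0.02, or 0.10 without HB-3. In HB-3 the median of the list lay at -0.13 (log2, relative to each gene's own median), against -0.301 over 511 Z models. GHR, the growth hormone receptor, held 97.0 CPM in HB-3, which is -0.72 relative to its median. GHR was lower still in HB-4, so HB-3 lay inside the range of the other libraries. The log2 difference of GHR was -0.53 ± 0.25 (adjusted p of 0.977 in edgeR) and -0.46 ± 0.27 without HB-3. MEF2C, a transcription factor of muscle differentiation, lay at -0.76 in HB-3, with 43.2 CPM there and 46.9 to 96.6 CPM elsewhere. Its log2 difference went from -0.42 ± 0.14 (adjusted p of 0.977 in edgeR) to -0.34 ± 0.13 without HB-3. CKMT2, the mitochondrial creatine kinase of muscle, lay at -0.94 in HB-3, with 660 CPM there and 739 to 2350 CPM elsewhere. GHR, MEF2C and CKMT2 thus lay well below the list's median in HB-3. NNT, which makes mitochondrial NADPH, lay at 0.14. Of the 23, 5 had their lowest value in HB-3, against 37.2% of the 511 Z models.

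Of 15 sex determination and sex hormone genes, 12 had a model and 5 were tested, with 3 higher and 2 lower in HB, a median log2 difference of 0.06, and 0 past the threshold in edgeR. Without HB-3 the median was 0.14. ESR1, an estrogen receptor, held 6.26 CPM in HB-3 and up to 8.45 CPM in another library. HSD17B4, a Z-linked enzyme of peroxisomal beta-oxidation and steroid metabolism, lay at -0.42 in HB-3. DMRT1, the Z-linked gene of testis determination in birds, held 2 counts in HB-3 and at most 0.277 CPM elsewhere, so no difference was detectable at this depth.

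For Z as a whole, the HB and LB difference rested on HB-3. Over 557 tested Z models the median log2 difference was -0.044, and 58.3% were lower in HB, against a median of 0.0 and 50.1% over all models. Without HB-3 the median was 0.004 and 48.8% of Z models were lower in HB, against 0.001 and 49.8% over all models. No Z model passed the threshold with or without HB-3 in edgeR. With all libraries, 20 of the 557 Z models had an unadjusted p under 0.05, beside 579 of all 12577 models tested. Without HB-3 these were 12 of 559 and 509 of 12663. Leaving out LB-5 instead also gave 12 Z models. DESeq2 called 0 Z models.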

How the data were processed

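Per the submitters' processing notes, reads were processed with fastp 0.18.0, HISAT2, StringTie 1.3.1 and DESeq2. A genome build, annotation and way of counting were not given in the sources used here. Per the file headers, the authors deposited raw whole-number counts per gene model and library, a mean FPKM per group, the log2 ratio of these means, and a raw and an adjusted p-value. A further 12 columns of values per library were not used. FPKM per library was computed from counts, totals and the gene length implied by the deposited mean FPKM. Of 15747 NCBI gene numbers, 14057 matched the reference table, which gave symbols and chromosomes only. Among the deposited counts, the value 2 occurred 2742 times and the value 1 occurred 367 times.

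HB and LB were compared in R 4.3.3 by edgeR 4.0.16 (quasi-likelihood, TMM, filterByExpr, Benjamini-Hochberg at 0.05), tested on simulated data. Alternatives were RLE size factors, DESeq2 1.42.0, no filter and each library left out. The named genes are the 6 W models, models of the same symbol or description, others on W, 3 lists and the 10 most similar patterns. The members and lists were chosen with earlier results of these data known. CPM was computed from the library totals of all gene models, with no further scaling unless named. Binomial intervals are exact (Clopper-Pearson, 95%).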

Additional observations from a re-analysis of the deposited data

Results flagged for a closer look

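Groups of 6 libraries were searched for a library far from the rest, by its gap to the nearest other library divided by the range of the group (limit 0.625). The search covered the Z level and the models that share a name with the 6 W models. It left out the 6 W models, their sum and their shares, which chose the list. Of 14 groups with any spread, 5 were flagged. The limit's chance rate of about 1 in 20 does not apply to these flags as a set. The groups share libraries, and a model with counts in HB-3 alone is flagged by construction. HB-3 stood apart for the further CTIF model and the further PIAS2 model on W, each with a gap of 1.0, since all other HB libraries were at 0. The Z level flagged HB-3 among HB (0.777), at -0.299, and LB-1 among LB (0.659), at -0.02. LB-2 was high among LB for the SMAD7 model with no place (0.629), at 10.7 CPM.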

How the results depend on the processing

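The count of models called between HB and LB was 0 in edgeR with either scaling, without the filter and in each of the 12 fits that left out a library, and 1 in DESeq2. The median log2 difference of Z models lay between -0.037 and -0.036 with RLE size factors, DESeq2 or no filter, and between -0.067 (without HB-4) and 0.004 (without HB-3) when single libraries were left out. Among partners, leaving out single libraries moved the log2 difference of Z-linked GNAQ between -0.053 and 0.044, that of Z-linked PIAS2 between -0.042 and 0.186 and that of the SMAD7 model with no place between -0.033 and 0.322, so each changed sign. Z-linked NIPBL (-0.174 to -0.04) and CTIF (-0.12 to -0.03) kept theirs. The fits of the W models without single libraries were chosen after seeing the data, and HNRNPK ran from -0.139 (without HB-3) to 0.483. The lowest value was also the one without HB-3 for CTIF (0.153 to 2.047), NIPBL (0.158 to 1.684), SMAD7 (0.464 to 1.92), GNAQ (0.529 to 1.074) and PIAS2 (0.271 to 0.793). The Z level of HB-3 was -0.355 with a minimum of 10 CPM, -0.281 as a mean and -0.341 with a pseudocount of 0.1, and the other libraries stayed between -0.052 and 0.053. No paired analysis was made because the labels name no pairs of HB and LB samples and the column numbers only name libraries. W models with under 50 counts are limited by depth.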
